A study of Mus musculus with 48 samples.

Results

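The genes described here carry out the interferon response and class I antigen presentation, and their RNA was measured by RNA-seq in the mouse striatum. They were chosen by name from 44 listed symbols. Of these, 43 were kept because their mean over 48 libraries reached 0.2 CPM (reads of a gene scaled to the size of its library), out of 48795 genes counted and 19714 genes tested. The symbol left out, Zbp1, a sensor of Z-form nucleic acid, averaged 0.191 CPM. Just inside the limit stood Mx1, a dynamin-like GTPase that blocks virus replication, with 0.213 CPM. All 44 genes passed the separate low-count filter of the test, so no member was lost there.

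The study crossed Q140 mice with mice lacking Msh3. Q140 is a knock-in model of Huntington's disease with an expanded CAG repeat in the huntingtin gene Htt, and Msh3 is a mismatch repair gene whose protein takes part in the lengthening of such repeats in the body. The 6 groups were wild type (WT), heterozygous Q140 knock-in (Q140), Msh3+/-, heterozygous Q140 x Msh3+/-, Msh3-/- and heterozygous Q140 x Msh3-/-, each with 8 mice, 4 female and 4 male. All mice had a C57BL/6 background and no treatment is named. The labels give an age of 12 months, as does the name of the deposited counts, whereas the text on RNA extraction gives dissection at 6 months. The sources used here do not explain the difference. The labels mark every Q140 mouse, alone or crossed, as heterozygous (Het) for the knock-in allele, and "Q140" stands for that genotype throughout. The repeat length measured in these mice and the design of the Msh3 allele are not given in the labels. Each library is read here as 1 mouse, named by group, sex and replicate number (WT F2 is the second WT female).

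Library totals ran from 38916064 to 60899661 counts with a median of 47326646. Msh3 counts were higher, not lower, in the mice labelled as lacking it: 26.4 to 32.5 CPM over the WT and Q140 mice, 68.4 to 81.5 CPM over the groups labelled Msh3+/- and 103 to 126 CPM over those labelled Msh3-/-. Summed over the gene, these counts separate the labelled genotypes without overlap but do not check the loss of the protein, so the Msh3 groups are called by their labels. Markers of spiny projection neurons, the main cells of the striatum, were abundant in every library, with a summed level of 7118 CPM or more. In whole tissue, fewer cells of a type and less RNA per cell cannot be told apart.

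Interferons are cytokines released when a cell senses foreign or misplaced nucleic acid. Type I interferon binds a receptor that acts through JAK kinases on STAT proteins, which enter the nucleus with IRF9 and bind the interferon-stimulated response element (ISRE). Type II interferon acts through a receptor of its own on the gamma-activated site (GAS). The induced genes include virus inhibitors, the ubiquitin-like protein ISG15 and guanylate-binding GTPases. They also include the class I pathway, in which the TAP transporter supplies peptides for a heavy chain paired with beta-2-microglobulin. In the brain, microglia and blood vessel cells are known as strong responders, and neurons carry little class I protein.

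Promoters of the members are shown because they can be searched for the letters of these elements without use of the measured values. RefSeq promoter sequences (GRCm38.p6, windows of 300 bases from 250 before a start site) were found for 32 of the 43 members. The core letters of the ISRE, GAAANNGAAA on either strand, occurred in 16 of these 32 genes, against 3.99% of the 27025 genes in the promoter table. The letters of a GAS, TTCNNNGAA, which read the same on both strands, occurred in 9 of the 32, against 9.55% of genes. A match can overlap another, is a description of letters and does not show a bound site. The stretches below carry the matches in capitals, with their flanks, written 5′ to 3′ on the strand of the gene.
Ifit1, chr19:34640765-34640833, plus strand: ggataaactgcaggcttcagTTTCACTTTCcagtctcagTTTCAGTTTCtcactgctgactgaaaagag
Ifit3, chr19:34583353-34583436, plus strand: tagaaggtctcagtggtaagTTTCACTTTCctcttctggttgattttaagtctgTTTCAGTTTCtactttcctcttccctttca
Rsad2, chr12:26456543-26456592, minus strand: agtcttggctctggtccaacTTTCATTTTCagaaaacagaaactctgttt
Bst2, chr8:71537567-71537622, minus strand: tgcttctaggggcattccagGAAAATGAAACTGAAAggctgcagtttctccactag
Isg15, chr4:156200855-156200916, minus strand: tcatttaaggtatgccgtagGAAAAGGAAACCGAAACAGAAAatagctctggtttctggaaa
Gbp7, chr3:142530263-142530312, plus strand: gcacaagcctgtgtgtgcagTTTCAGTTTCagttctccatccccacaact
B2m, chr2:122147528-122147577, plus strand: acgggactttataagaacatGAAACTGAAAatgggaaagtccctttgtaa
Irf8, chr8:120736167-120736233, plus strand: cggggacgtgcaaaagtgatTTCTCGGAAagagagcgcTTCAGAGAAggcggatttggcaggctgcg
The first 7 stretches show ISRE-type letters, and the last, upstream of Irf8, shows 2 GAS-type matches and has no ISRE-type match in its 300-base window. Isg15, which encodes the ubiquitin-like modifier itself, has 3 ISRE-type matches that run into one another. Ifit1 and Ifit3, both on chromosome 19, encode RNA-binding inhibitors of viral translation and have 2 each. By GENCODE's annotation of GRCm38, the 44 listed genes lie on 14 chromosomes. H2-D1, H2-K1, Tap1, Tap2 and Tapbp lie on chromosome 17. None lies on chromosome 13, which holds Msh3, and the 3 on chromosome 5 (Oas1a, Oas2 and Oasl2) are 80 to 86 Mb from Htt.

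Most members were weakly expressed. The deposited length-scaled level (FPKM, median over 48 mice) had a median of 0.905 over the members and of 3.36 over all genes tested, and 9 of 43 members stood above the latter. Class I genes were the most abundant group. B2m, the light chain of class I, had a median of 63.7 FPKM (lowest 50.6, highest 100.3), the heavy chains H2-D1 and H2-K1 had 11.3 and 7.78 FPKM, and the peptide-loading chaperone Tapbp had 7.07 FPKM. The other members above the all-gene median were Ifi27 at 7.38, the virus-entry inhibitor Ifitm3 at 6.58, the signal transducers Stat2 at 6.5 and Irf3 at 5.96, and Ifit3 at 3.70 FPKM. Each of the 3 cytosolic RNA sensors was well below it: Ddx58, which encodes RIG-I, had 0.750, Ifih1, which encodes MDA5, had 0.451, and their regulator Dhx58 had 0.393 FPKM. Reads of near-identical relatives could be split or lost by the counting for H2-D1 and H2-K1, Ifitm2 and Ifitm3, Oas1a, Ifit3, Trim30a and the Gbp genes, so their values are uncertain in that respect. The libraries were stranded, but the strand setting of the counting is not given in the sources used here, so overlapping antisense genes may add to a count.

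**Figure D1:**
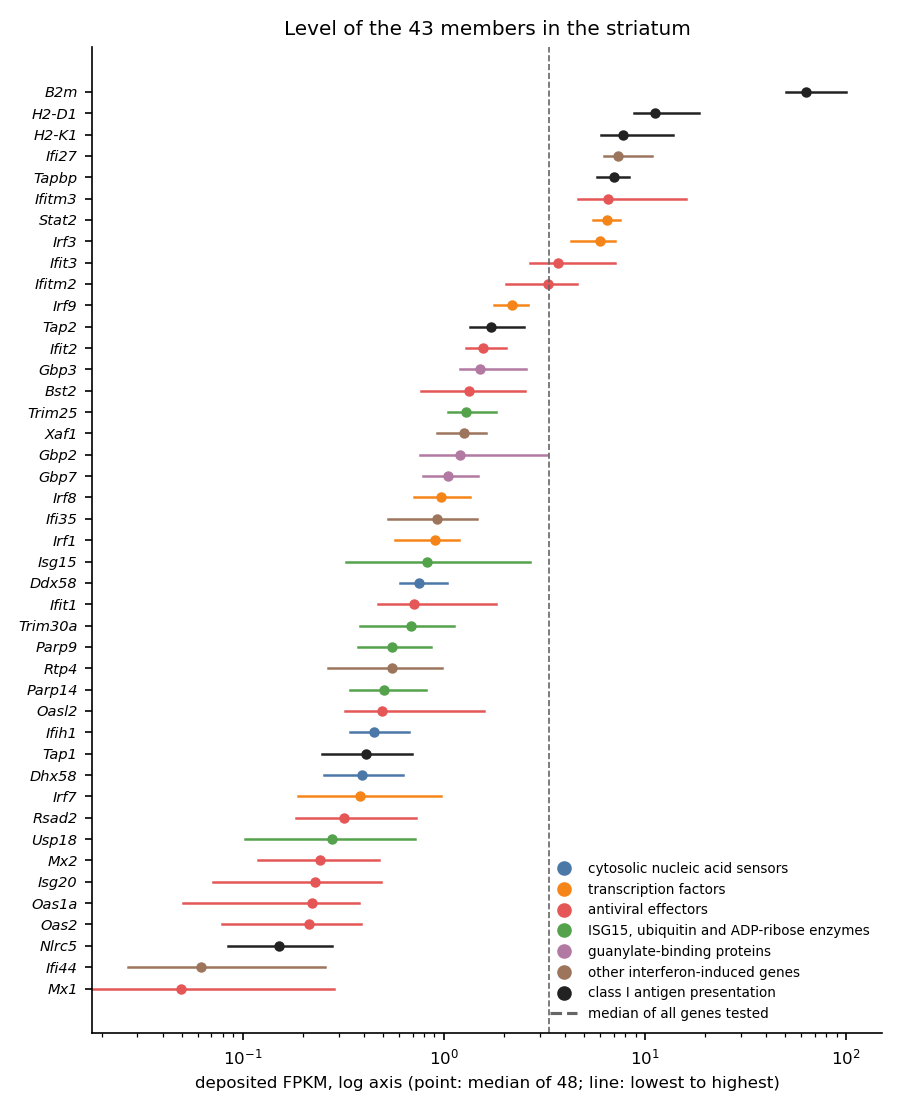
Level of each kept member as deposited FPKM on a log axis, with points at the median of 48 mice and lines from the lowest to the highest mouse, coloured by role. B2m leads at 63.7 FPKM, and 34 of the 43 members lie left of the dashed median of all genes tested (3.36 FPKM). The line of Mx1 meets the left edge because its lowest value was 0.

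A single WT mouse stood apart in these genes, and the results below are given with and without it. WT F2, the deepest library at 60899661 counts, had the highest value of all 48 mice in 31 of 43 members. It was among the 5 highest mice in 39 of 43 members (90.7%), against 12% of all genes tested. It exceeded each of the other 7 WT mice in 39 of 43 members, against 15.8% of all genes tested, and the median ratio to their mean was 1.67 over the members and 1 over all genes. The excess was uneven over the roles. Ratios for the 13 antiviral effectors ran from 1.23 to 6.77 and all 13 exceeded the other WT mice. For the 7 class I genes they ran from 1.17 to 1.82, again with all 7 exceeding. The 6 transcription factors ranged from 0.97 for Irf3 to 2.69 for Irf7, which amplifies the interferon loop, and 4 of the 6 exceeded the other WT mice.

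Isg15 shows the pattern plainly: WT F2 had 2.07 CPM, while the other 7 WT mice ranged from 0.252 to 0.856 CPM with a median of 0.454. For Mx1 the values were 1.05 CPM against 0.0493 to 0.281 CPM. For H2-K1 they were 36.5 CPM against 17.8 to 23.4 CPM. Irf8, the myeloid transcription factor, was an exception: WT F2 had 8.09 CPM, inside the 5.72 to 9.24 CPM of the others. The ratios had a median of 1.68 over the 16 members with ISRE-type letters and of 1.4 over the 16 promoters without them, and both ranges were wide (1.21 to 3.78 and 0.97 to 3.36). The 11 members with no promoter sequence found, Mx1 among them, had a median of 1.79 (1.32 to 6.77). A link between these letters and the ratios was not tested. No other mouse reached the level of WT F2. Next were the second females labelled Msh3-/- and Q140 x Msh3+/-, among the 5 highest mice in 21 and 20 of the 43 members, followed by Q140 F2 with 12. WT F2 and the second female labelled Q140 x Msh3+/- share the number 21 in their sample names, but so does the second female labelled Msh3+/-, which was among the 5 highest in 0 members; the labels do not say what the number means.

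**Figure D2:**
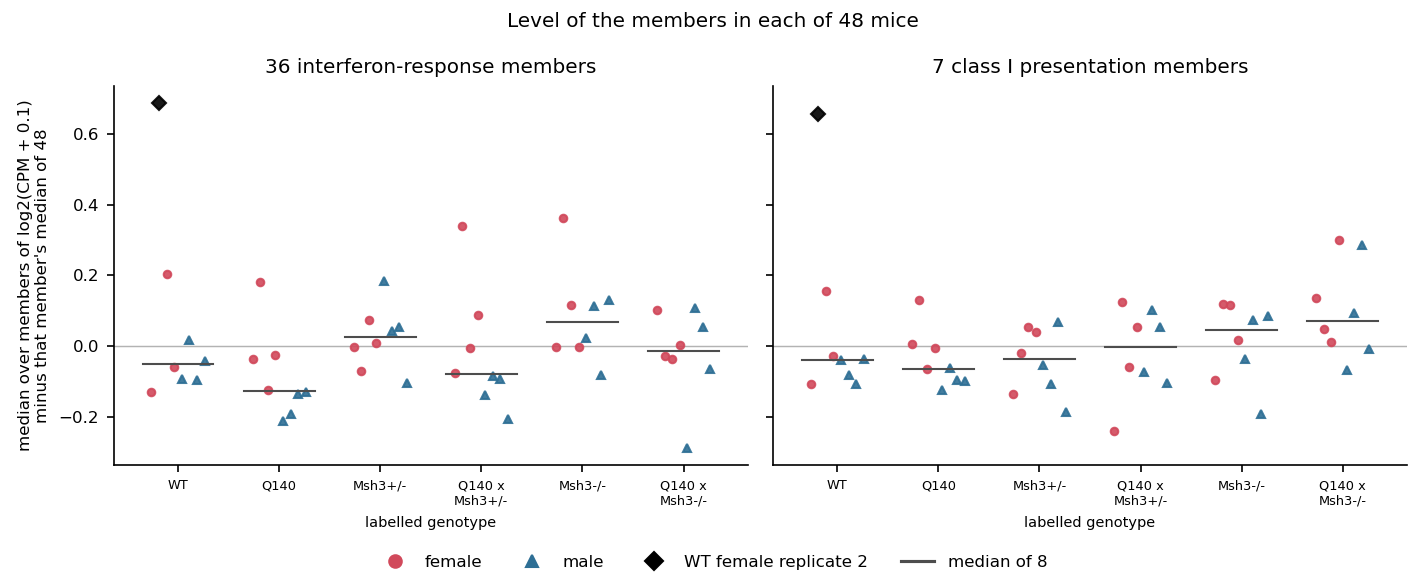
Median over members of log2(CPM + 0.1) minus the median of that member over 48 mice, for each mouse by labelled genotype, with 36 interferon-response members on the left and 7 class I members on the right. WT F2 (black diamond) is the highest mouse in both panels, at 0.69 and 0.65, followed on the left by the second female labelled Msh3-/- at 0.36 and on the right by the fourth female labelled Q140 x Msh3-/- at 0.30.

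Cell type markers in WT F2 were measured beside this. Its summed level of 13 microglial markers was 638 CPM, the highest of 48 mice, against a low of 537 and a median of 545 CPM over the 8 WT mice. Of these, Csf1r, C1qa, C1qb, C1qc and Trem2 were the highest of 48, whereas the homeostatic microglial genes P2ry12 and Tmem119 ranked 21 and 32. The summed level of 12 endothelial and mural markers was also the highest of 48, at 508 CPM. Among them Cldn5, Pecam1, Flt1, Slco1a4 and Abcb1a were the highest of 48, and the others ranked from 2 (Cdh5 and Kcnj8) to 25 (Acta2). The summed level of 10 astrocyte markers ranked 10 of 48. Aldoc, Sox9 and Fgfr3 in that list were the highest of 48, and the others ranked from 2 (Gfap) to 33 (Aldh1l1). The part of these cell types in the result was not tested. Defining T-cell genes such as Cd3e and Cd8a were at or near 0 in every mouse, with 0.212 and 0.213 CPM in the highest of 48 mice. Natural killer genes were likewise at or near 0. The T-cell receptor gene Trac had a median of 0.224 and a highest value of 0.685 CPM, and was lowest in WT F2 at 0.0833 CPM. The pan-leukocyte gene Ptprc, at 6.55 CPM, was highest in WT F2. The summed red-cell markers of WT F2 were the lowest of 48.

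In Q140 mice compared with WT, 9 of 43 members fell and 0 rose (edgeR quasi-likelihood test over all genes, adjusted p under 0.05). Over all genes tested the test called 33% in either direction and 16% lower, so the members' count of lower genes stands near the background. With library totals in place of trimmed-mean scaling, 4 members fell and Irf3 rose, while the share of all calls that were higher moved from 51.6% to 73.7%. The median log2 difference of the members was -0.18, against -0.0041 over all genes, with 37 of 43 below 0. Without WT F2, 1 member, Irf8, fell, against 30.5% of all genes called in either direction and 14.6% lower. The median of the members was then -0.03, with 27 of 43 below 0. Leaving out Q140 F4 instead left 5 of the 9 calls (Irf8, Oasl2, Ifitm3, Gbp2 and Tap2).

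Among the transcription factors, Irf8, which directs microglial and other myeloid cells, was 4.87, 6.16 and 6.72 CPM (lowest, median and highest) in Q140 mice and 5.72, 7.84 and 9.24 CPM in WT mice. The ranges overlap, but every Q140 mouse lay below the WT median. Irf8 fell by 0.37 on the log2 scale (SE 0.10, adjusted p = 0.00185 by edgeR), and by the same 0.37 without WT F2 (adjusted p = 0.00322). It passed the test under every alternative tried for this comparison, with differences from -0.45 to -0.30. Microglial markers fell with it: 6 of 13 were lower in Q140 mice and 0 higher, with a median log2 difference of -0.18, and 6 of 13 were lower without WT F2. Their summed level was 454 to 524 CPM in Q140 mice and 537 to 638 CPM in WT mice. Whether these markers account for the value of Irf8 was not tested.

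The other 5 transcription factors did not pass. Stat2, the type I signal transducer, was 25.5, 28.1 and 30.2 CPM in Q140 mice and 25.2, 28.7 and 33.7 CPM in WT mice, with a log2 difference of -0.02 (SE 0.05). For Irf3, the factor that sensors activate, the difference was 0.16 (adjusted p = 0.0895), the only member to be called higher when library totals replaced the scaling by trimmed means.

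The 4 antiviral effectors that fell were Oasl2, Ifitm3, Ifitm2 and Ifit1, and WT F2 had the highest WT value in each. Oasl2, an oligoadenylate synthetase relative, was 2.0, 2.65 and 4.60 CPM in Q140 mice and 2.51, 3.25 and 10.3 CPM in WT mice. The next WT mouse had 5.50 CPM, so the groups overlap over most of their ranges. Oasl2 fell by 0.60 (SE 0.20, adjusted p = 0.018). Without WT F2 the difference was -0.31 (adjusted p = 0.174).
Ifitm3 and Ifitm2 encode membrane proteins that block virus entry. Ifitm3 was 3.52, 4.15 and 5.06 CPM in Q140 mice and 3.95, 4.87 and 11.1 CPM in WT mice, where WT F2 had more than any other WT mouse, the next at 5.28 CPM. It fell by 0.39 (SE 0.14, adjusted p = 0.0237), and was -0.17 (adjusted p = 0.259) without WT F2. Ifitm2 depended less on that mouse: it fell by 0.35 (SE 0.13, adjusted p = 0.0259), with -0.29 (adjusted p = 0.0767) without it.
Ifit1 was 1.19, 1.52 and 2.47 CPM in Q140 mice and 1.48, 1.93 and 4.93 CPM in WT mice. Both groups have their highest value in their F2 mouse, and the remaining WT mice lie at or below 2.12 CPM. Ifit1 fell by 0.49 (SE 0.20, adjusted p = 0.0457), and lost the call in 11 of 23 alternatives, with -0.24 (adjusted p = 0.331) without WT F2. The other 9 effectors, among them Isg20, Rsad2, Bst2, Oas2 and both Mx genes, did not pass, with differences from -0.43 for Oas2 to 0.25 for Mx2.

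Guanylate-binding proteins attack the membranes of intracellular pathogens. Gbp2 was 1.85, 2.57 and 4.25 CPM in Q140 mice and 2.13, 3.12 and 8.33 CPM in WT mice. It fell by 0.46 (SE 0.16, adjusted p = 0.0226), and was -0.21 (adjusted p = 0.245) without WT F2. Its relative Gbp3 was 3.95, 4.32 and 6.37 CPM in Q140 mice and 4.11, 5.06 and 8.54 CPM in WT mice, a difference of -0.28 that missed the threshold (adjusted p = 0.0623). The ranges of both genes overlap between the groups.

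Of the other interferon-induced genes, Ifi44 fell by 0.78 (SE 0.29, adjusted p = 0.0322) from a low level: 0.269, 0.304 and 0.546 CPM in Q140 mice against 0.215, 0.435 and 1.60 CPM in WT mice. The lowest WT mouse lies below every Q140 mouse, and the high values come from WT F2 and a WT mouse at 1.06 CPM. Without WT F2 the difference was -0.46 (adjusted p = 0.227), and without WT F3 it was -0.68 (adjusted p = 0.0805). Ifi27, an interferon-induced membrane protein, was 9.16, 10.04 and 12.3 CPM in Q140 mice and 9.82, 11.3 and 16.2 CPM in WT mice. It fell by 0.19 (SE 0.07, adjusted p = 0.0347), and was -0.12 (adjusted p = 0.189) without WT F2.

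**Figure D3:**
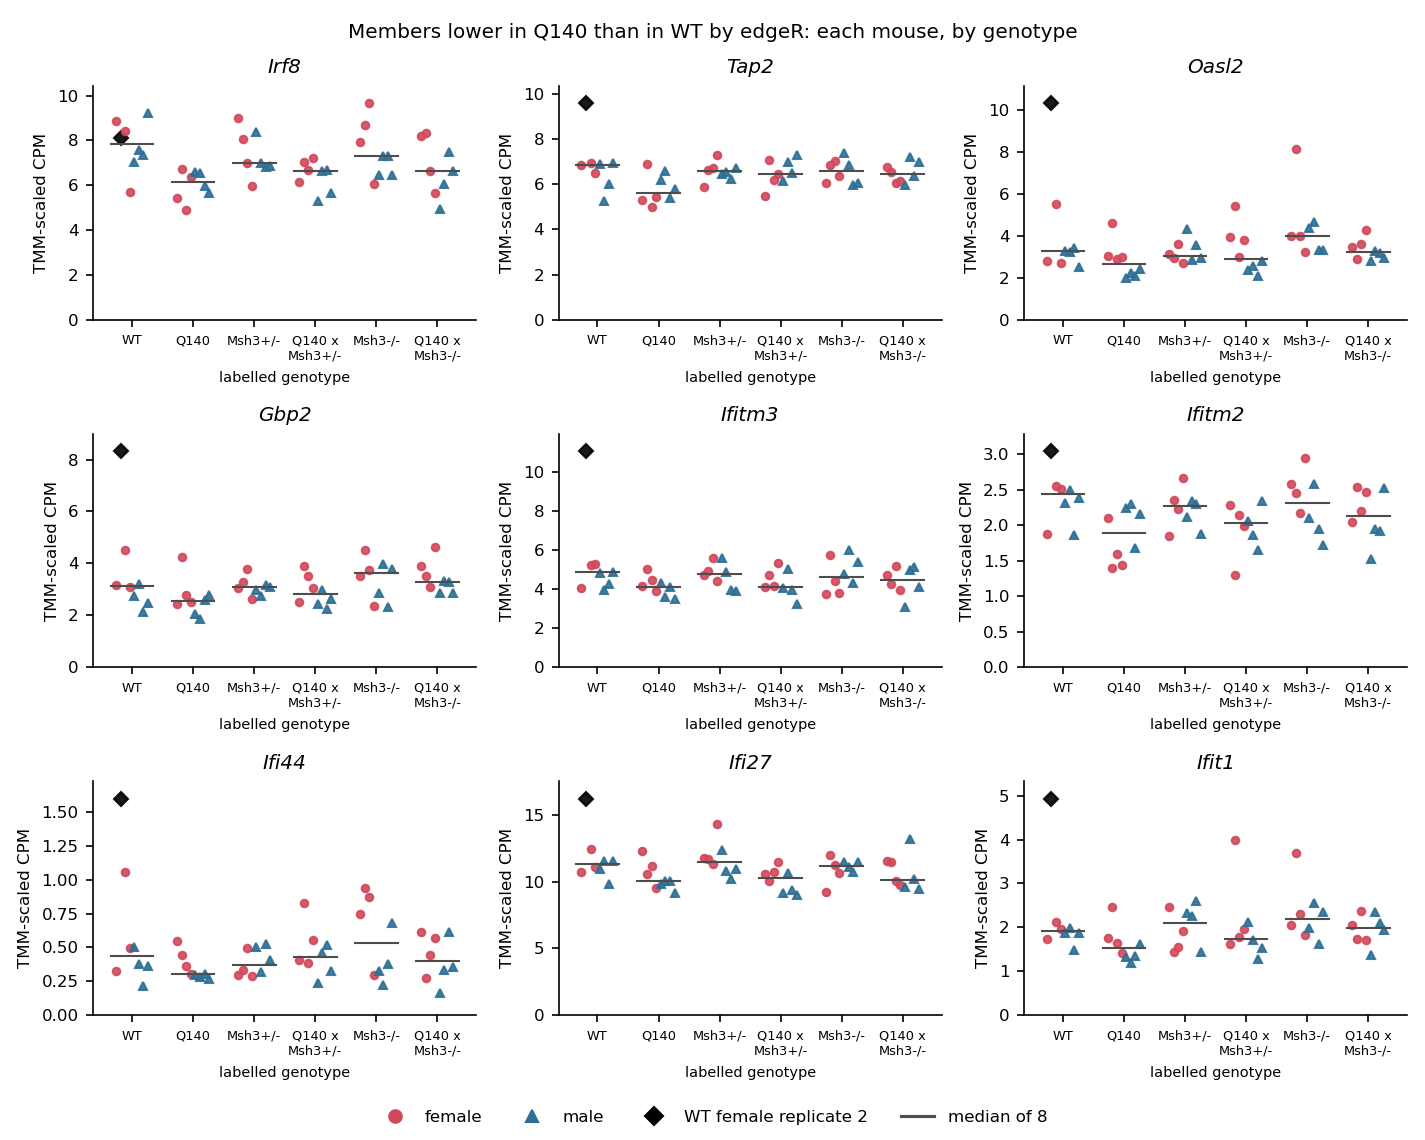
TMM-scaled CPM of the 9 members that were lower in Q140 than in WT mice, for each of 48 mice by labelled genotype, with the median of 8 as a line. WT F2 (black diamond) is the highest WT mouse in 8 of the 9 panels, the exception being Irf8, where the highest WT mouse is at 9.24 CPM.

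In the class I pathway, Tap2, a subunit of the peptide transporter, was the only one of 7 members to fall. It was 5.0, 5.60 and 6.92 CPM in Q140 mice and 5.27, 6.87 and 9.59 CPM in WT mice, and it fell by 0.24 (SE 0.08, adjusted p = 0.0132). Without WT F2 it was -0.15 (adjusted p = 0.0952). B2m was 47.1, 52.1 and 64.8 CPM in Q140 mice and 46.9, 57.2 and 87.5 CPM in WT mice, with a log2 difference of -0.11 (SE 0.09, adjusted p = 0.387). The heavy chains parted in sign without WT F2, at 0.17 for H2-D1 (adjusted p = 0.0702) and -0.08 for H2-K1 (adjusted p = 0.546), and neither passed. Nlrc5, the transactivator of class I genes, had a difference of 0.02 (SE 0.18).
Among the sensors, Ddx58 was 4.61, 5.18 and 6.68 CPM in Q140 mice and 4.42, 5.13 and 7.41 CPM in WT mice, and Ifih1 had a difference of -0.08 (SE 0.10). None of the 6 ISG15, ubiquitin and ADP-ribose enzymes passed. Trim25, the ubiquitin ligase that activates RIG-I, differed by -0.07 (SE 0.08), and Trim30a by -0.24 (SE 0.13, adjusted p = 0.156). Isg15 itself had a difference of -0.04 with WT F2 and 0.34 without it, neither past the threshold.

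The same contrast was made in other mice on the backgrounds labelled Msh3+/- and Msh3-/-. With Msh3+/- the test called 1 member, Ifi27, which fell by 0.21 (SE 0.07, adjusted p = 0.0331), against 21.5% of all genes called and 10.8% lower; with library totals it was not called, and 76.9% rather than 49.9% of all calls were higher. Ifi27 was 8.99, 10.3 and 11.5 CPM in the Q140 x Msh3+/- mice and 10.2, 11.5 and 14.4 CPM in the Msh3+/- mice. The ranges overlap from 10.2 CPM, just below the median of the former, to 11.5 CPM, near the median of the latter. Of the members, 20 were above and 23 below 0, with a median of -0.0099. Its call was lost in 8 of 23 alternatives, among them leaving out Msh3+/- F4 (-0.17, adjusted p = 0.102) or M1, or Q140 x Msh3+/- F2, M1, M3 or M4 (-0.19 to -0.20). Irf1, an interferon-induced transcription factor, was called lower in addition without Q140 x Msh3+/- M2, and in place of Ifi27 without Msh3+/- M1.
On the background labelled Msh3-/-, 1 member was called, Stat2, against 7.86% of all genes called, 3.84% lower and 4.01% higher; with library totals it was not called, and 66.8% rather than 51.1% of all calls were higher. Stat2 was 24.6, 28.0 and 28.6 CPM in the Q140 x Msh3-/- mice and 27.4, 31.0 and 33.7 CPM in the Msh3-/- mice. It fell by 0.15 (SE 0.05, adjusted p = 0.0459), and its call was lost in 16 of 23 alternatives, with differences from -0.17 to -0.12. The lowest Q140 x Msh3-/- mouse, F3, had 24.6 CPM against 27.3 CPM for the next, and without it the difference was -0.12 (adjusted p = 0.123). The call was also lost when Msh3-/- F1, F2, F3, F4, M1 or M3, or Q140 x Msh3-/- F1, F2, F4, M2 or M4 was left out. The difference of Ifi27 on this background was -0.05, and that of Stat2 with Msh3+/- was 0.0050, neither past the threshold. WT F2 is in neither comparison but enters the shared estimate of spread; without it, H2-D1 was also called on the background labelled Msh3-/-, higher by 0.21 (adjusted p = 0.0477).

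Irf8 did not pass on either: -0.21 (SE 0.10, adjusted p = 0.131) with Msh3+/- and -0.15 (SE 0.10, adjusted p = 0.39) with Msh3-/-. The change of the Q140 difference with Msh3 genotype was tested as an interaction. At an unadjusted p under 0.05 there were 3 members each for Msh3+/- and Msh3-/-, against 1791 and 3742 of the 19714 genes tested. After adjustment the interaction called 0 members for both the Msh3+/- and the Msh3-/- background (0.0152% and 6.15% of all genes, the latter 2.06% lower and 4.09% higher). With library totals both counts were again 0, and of all calls for Msh3-/- 31% rather than 66.4% were higher. Both counts were also 0 without WT F2, with 0 and 1 members at an unadjusted p under 0.05. DESeq2 called 0 and 0 as well, with no adjusted p for 8 and 4 of the rarest members. For Irf8 the interaction was 0.17 (SE 0.14) and 0.22 (SE 0.14), so a difference between backgrounds was not detectable at this precision. The contrasts with WT share the WT mice, WT F2 among them. Endothelial and mural markers were lower in 10, 9 and 2 of 12 genes on the WT, Msh3+/- and Msh3-/- backgrounds, and microglial markers in 6, 1 and 0 of 13. Over all genes tested, 16%, 10.8% and 3.84% were lower in the same order. The edgeR interaction with Msh3-/- called Cdh5 and Pdgfrb, at 0.33 (adjusted p = 0.0352) and 0.24 (adjusted p = 0.0479). Without WT F2, 7 of 12 and 6 of 13 were lower on the WT background, and both interactions called 0 genes of either list.

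**Figure D4:**
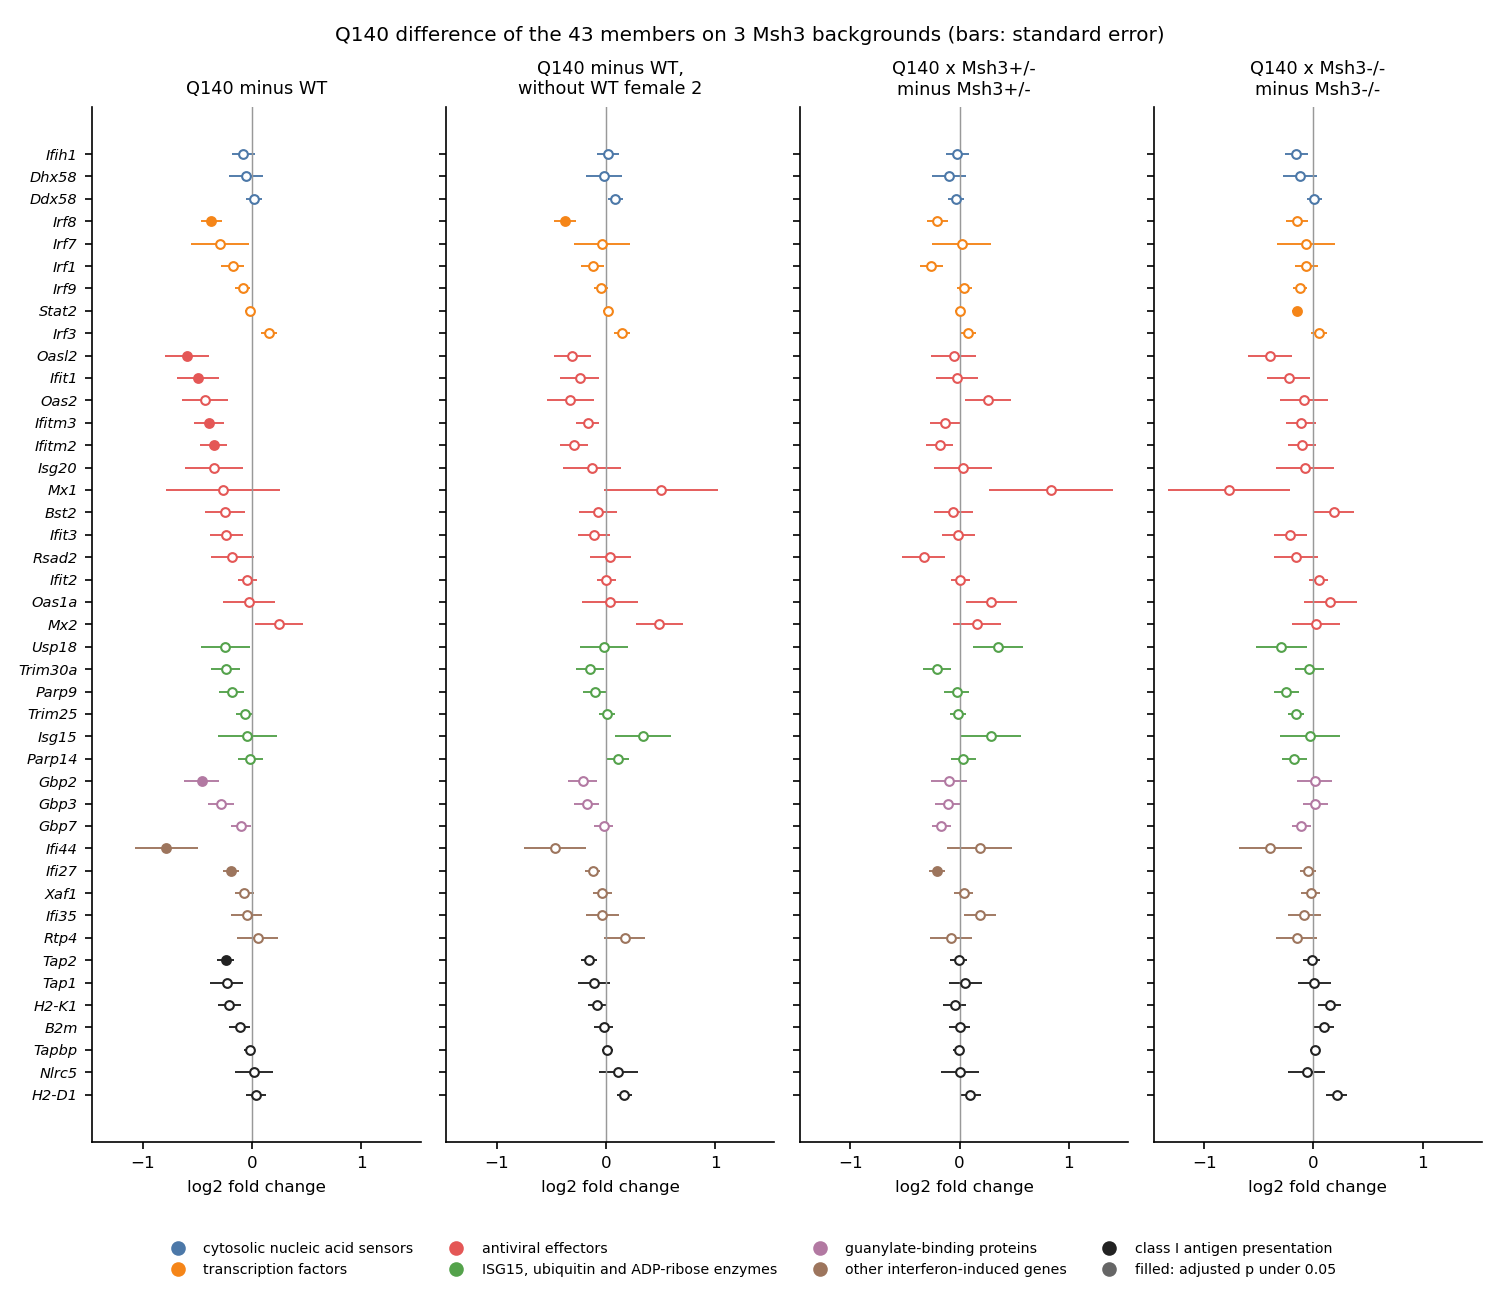
Log2 difference of each of 43 members between mice with and without Q140 in 4 panels (WT background, the same without WT F2, and the backgrounds labelled Msh3+/- and Msh3-/-), with bars of 1 standard error and filled points for an adjusted p under 0.05. The first panel has 9 filled points, all below 0; without WT F2 Irf8 alone is filled, and the panels labelled Msh3+/- and Msh3-/- have 1 each, Ifi27 and Stat2.

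With Msh3 lost by label and no Q140, the test called 0 members for either 1 or both alleles lost. DESeq2 also called 0, and edgeR called 0.0101% and 0.0457% of all genes, the latter 0.0355% lower and 0.0101% higher. At an unadjusted p under 0.05 there were 1 and 2 members, against 937 and 1187 of the 19714 genes tested. Of the members, 12 and 19 of 43 differences were above 0, against 49% and 49.5% of all genes. There were again 0 calls without WT F2, with 0 and 7 members at an unadjusted p under 0.05. Then 27 and 33 of 43 differences were above 0, with medians of 0.038 and 0.10. The median standard error was 0.13 on the log2 scale, and it reached 0.57 for Mx1, so small differences in the rarest members could not be seen.
In mice that carry Q140, 0 members were called with 1 Msh3 allele lost (1.32% of all genes, 0.842% higher and 0.477% lower) and 0 with both lost (16.3%, 8.75% higher and 7.57% lower). At an unadjusted p under 0.05 there were 3 and 5 members, against 2757 and 5591 of the 19714 genes tested. DESeq2 called 0 members in both, with no adjusted p for 4 and 1 members. With library totals both were again 0, and with both alleles lost 30.9% rather than 53.6% of all calls were higher. There the smallest adjusted p was 0.116, for Gbp2 and H2-K1. Gbp2 was 2.84, 3.30 and 4.61 CPM in the Q140 x Msh3-/- mice, all at or above the 2.57 CPM median of the Q140 mice, and differed by 0.37 (SE 0.16). Without Q140 F2, the high Q140 mouse at 4.25 CPM, Gbp2 alone was called higher; with WT F2 left out of the shared spread, Gbp2 (adjusted p = 0.0382) and H2-K1 (adjusted p = 0.0433) were. H2-K1 was 18.6, 21.1 and 30.5 CPM against 16.9, 18.9 and 22.2 CPM, with a difference of 0.24 (SE 0.10). In the same contrast 4 of 13 microglial and 11 of 12 spiny neuron markers were higher, and their part in these values was not tested.

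Members also differed by sex. Over all 6 genotypes, 4 of 43 members were higher in females and 0 lower, against 4.26% of all genes called in either direction, 2.61% higher and 1.65% lower. With library totals 3 were higher and 0 lower, although 29% rather than 61.3% of all calls were higher. The members' median was 0.15, against -0.0004 over all genes. Of the members, 37 of 43 were above 0, against 49.7% of all genes. At an unadjusted p under 0.05 there were 21 of 43 members, against 3601 of the 19714 genes tested. The 4 called members were named after their values were seen. Without WT F2 the same 4 genes were called, with a median of 0.11, 36 of 43 above 0 and 18 at an unadjusted p under 0.05. The mice most often among the 5 highest were female: F2 of WT, Msh3-/-, Q140 x Msh3+/- and Q140 (39, 21, 20 and 12 of 43 members). Other females ranked low, such as the second labelled Msh3+/-, with 0. Leaving out these high females together was not tested.
Nlrc5 was 0.736, 1.57 and 2.29 CPM (lowest, median and highest) in 24 females and 0.852, 1.12 and 1.84 CPM in 24 males, higher in females by 0.43 (SE 0.10, adjusted p = 0.00796). Gbp2 was 2.35, 3.40 and 8.33 CPM in females and 1.85, 2.81 and 3.97 CPM in males, higher by 0.35 (SE 0.09, adjusted p = 0.0217). Their medians differ, but most of the range of each gene is common to both sexes. Oasl2 was 2.68, 3.54 and 10.3 CPM in females and 2.0, 2.94 and 4.63 CPM in males, higher by 0.42 (SE 0.12, adjusted p = 0.0251). Ddx58 was 4.87, 5.48 and 7.41 CPM in females and 4.13, 5.06 and 6.34 CPM in males, higher by 0.15 (SE 0.04, adjusted p = 0.0238). Without WT F2 the differences were 0.40, 0.27, 0.33 and 0.13 in the same order, with adjusted p from 0.0137 to 0.0372. Leaving out the Msh3-/- mouse F2 put Oasl2 at 0.37 and an adjusted p of 0.05. Leaving out the Msh3-/- mouse M4 raised the count of called members to 7.
By sex, 0 of 13 microglial markers were called, and 1 of 12 endothelial and mural markers, the smooth muscle actin Acta2, was lower in females. All 5 red-cell markers were higher in females, at summed levels with a median of 0.454 and a highest value of 23.1 CPM over 48 mice. Of 3 tested B-cell and plasma-cell genes, Ighm was higher in females by 0.27 (adjusted p = 0.00199), while Cd79b at 0.20 (adjusted p = 0.746) and Jchain at -0.19 (adjusted p = 0.483) did not pass. Their part in the sex difference was not tested. The Q140 difference itself did not vary with sex past the threshold in any member or in any gene tested. At an unadjusted p under 0.05 there were 2 members, against 658 of the 19714 genes tested.

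**Figure D5:**
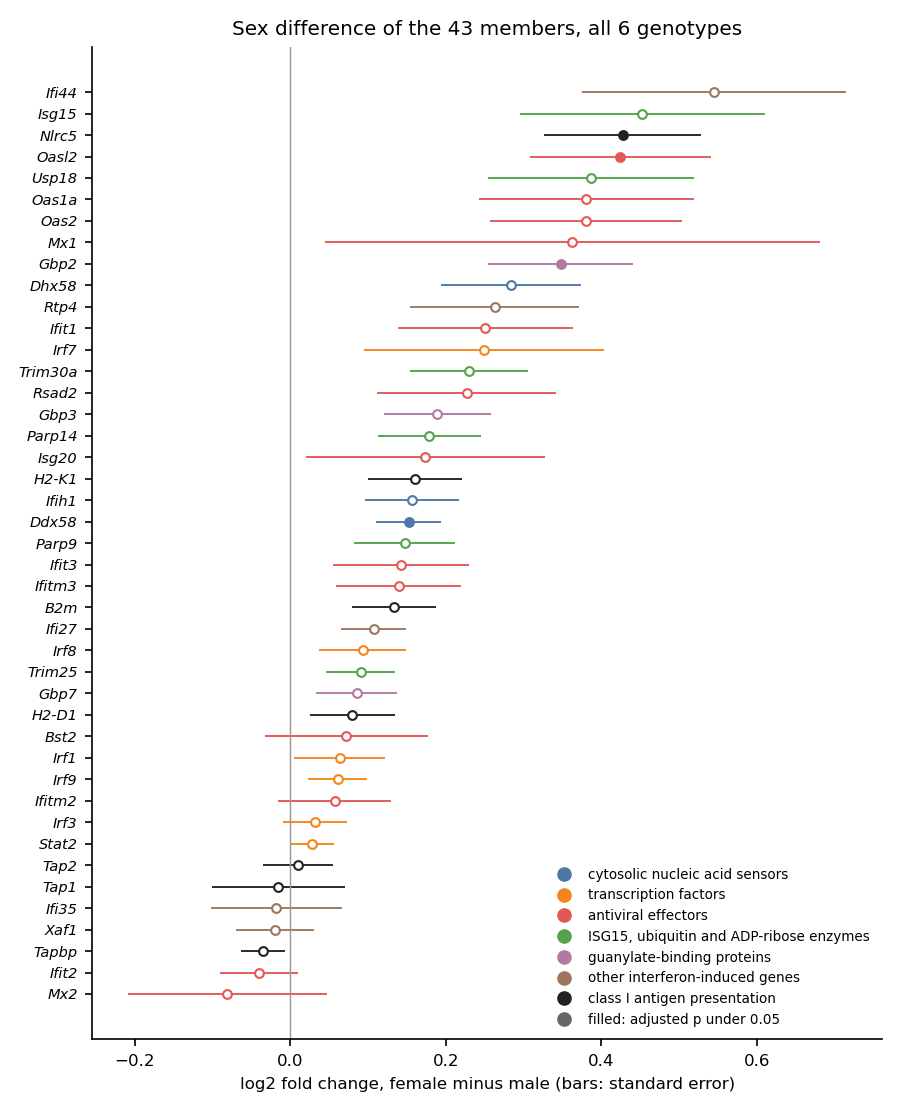
Log2 difference between 24 females and 24 males for each of 43 members, with bars of 1 standard error and filled points for an adjusted p under 0.05. The filled points are Nlrc5, Oasl2, Gbp2 and Ddx58, and 37 of the 43 points lie right of 0.

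Genes that act around the members were followed in lists drawn up by function. Among 13 tested receptors and JAK-STAT signalling genes, 6 rose and 2 fell in Q140 mice compared with WT, where 17% of all genes rose, and the counts were again 6 and 2 without WT F2. Ifngr2, a chain of the interferon gamma receptor, was 19.4, 23.1 and 27.5 CPM in Q140 mice and 12.4, 15.3 and 20.04 CPM in WT mice, and rose by 0.57 (SE 0.07, adjusted p = 3.64e-10). The highest WT mouse, F2, lay above the lowest Q140 mouse. The Q140 rise of Ifngr2 was smaller with Msh3-/- than with WT, by an interaction of -0.37 (SE 0.09, adjusted p = 0.00738). The type I receptor chain Ifnar1 rose by 0.13 and the kinase Jak1 by 0.12. The genes that fell were Ifngr1, the other chain of the gamma receptor, by 0.17 and the kinase Jak2 by 0.18, both named after their values were seen.

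Of 14 tested genes of nucleic acid sensing and its adaptors, 3 rose and 1 fell, with or without WT F2, against 17% and 16% of all genes, so the counts stand near the background. The adaptor Myd88 rose by 0.25 and the nucleotide hydrolase Samhd1 by 0.16, while Tmem173, which encodes the DNA-sensing adaptor STING, fell by 0.36 (adjusted p = 0.014).

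Of 28 tested further interferon-induced genes, 5 fell and 0 rose, with a median of -0.27. The count of lower genes is near the background of 16% of all genes. Without WT F2, 2 fell, against 14.6% of all genes, with a median of -0.13. Ifi27l2a, a relative of Ifi27, was 0.0813, 0.192 and 0.324 CPM in Q140 mice and 0.138, 0.604 and 0.999 CPM in WT mice. It fell by 1.47 (SE 0.33, adjusted p = 0.000293), and by 1.32 without WT F2. Pml, the organiser of nuclear bodies, fell by 0.14 with and by 0.13 without that mouse. Gbp9 and the galectin Lgals9 fell by 0.30 and 0.26, and missed the threshold without it.

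Of 16 tested further class I genes, 6 rose and 1 fell, against 17% and 16% of all genes, and 9 did not pass. Without WT F2, 5 rose and 1 fell. Psmb10, a catalytic subunit of the immunoproteasome, was 8.45, 9.27 and 11.3 CPM in Q140 mice and 5.77, 6.97 and 8.08 CPM in WT mice, and rose by 0.48 (SE 0.07, adjusted p = 2.59e-07). The proteasome activator subunit Psme1 was 20.4, 23.5 and 26.9 CPM against 16.0, 17.3 and 20.1 CPM, and rose by 0.41 (SE 0.05, adjusted p = 3.19e-09). Both genes separated the groups with no overlap, and so did the peptide-trimming protease Erap1, which rose by 0.44, and the class I-like gene H2-T22, which rose by 0.35. Psme1, Psmb10 and Erap1 also rose on the backgrounds labelled Msh3+/- (by 0.35, 0.42 and 0.24) and Msh3-/- (by 0.24, 0.25 and 0.20), in mice not shared with the first comparison. H2-T22 rose by 0.25 with Msh3+/- but did not pass with Msh3-/- (0.16, adjusted p = 0.0644 by edgeR). Psmb8 and Psmb9, the other immunoproteasome subunits, had differences of -0.35 and -0.34 that did not pass, and neither did the class I-like genes H2-Q4, H2-Q6 and H2-Q7 at -0.34, -0.24 and -0.41.
H2-T23, which encodes the nonclassical class I chain Qa-1 and was singled out after its values were seen, was the 1 gene of this list to fall. It was 5.77, 6.38 and 6.91 CPM in Q140 mice and 7.4, 8.31 and 11.3 CPM in WT mice, without overlap, and fell by 0.44 (SE 0.08, adjusted p = 1.01e-05), or by 0.38 without WT F2. It did not pass on either Msh3 background, with differences of -0.023 (SE 0.08, adjusted p = 0.885) for Msh3+/- and 0.0035 (SE 0.08) for Msh3-/-. The interactions were of like size, 0.42 (SE 0.11, adjusted p = 0.142) for Msh3+/- and 0.44 (SE 0.11, adjusted p = 0.00729) for Msh3-/-, and the latter passed the threshold.

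Of 6 tested class II genes, which present peptides to CD4 T cells, the peptide-loading genes H2-DMa and H2-DMb1 fell, by 0.24 and 0.46, and the same number fell without WT F2, against 16% and 14.6% of all genes lower. Among marker lists in the same comparison, 5 of 10 astrocyte markers were lower, as were 11 of 12 spiny neuron markers with 1 higher. Of the 3 tested T-cell and natural killer genes 1 was lower, Cd4, which had a median of 128 CPM in tissue where Cd3e had 0.0212. Of 3 tested B-cell genes 1 was lower (Ighm), of 5 red-cell genes 2 were higher and of 6 choroid plexus genes 1 was higher. Without WT F2 the counts were 5 of 10 astrocyte, 11 lower and 1 higher of 12 spiny neuron, 7 of 12 endothelial and mural and 0 of 5 red-cell markers. Their part in the values of the pathway genes was not tested.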

How the data were processed

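RNA of 48 striata was sequenced with a TruSeq stranded kit, per the labels' protocols. STAR 2.7.5c, SAMtools 1.10, HTSeq 0.12.3 and the mm10 build are named in the submitters' processing notes; no source used here gives the annotation release or the strand setting of the counting. The authors deposited raw read counts per gene, whole numbers without normalization, and separately FPKM, which scale by depth and gene length. Counts were used as deposited for every test and FPKM only to compare levels between genes. All columns belonged to the 48 libraries.

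Genes were kept by filterByExpr (minimum count 10), scaled by trimmed means (TMM) and fitted with edgeR 4.0.16 (R 4.3.3, limma 3.58.1): robust quasi-likelihood, 1 term per genotype plus sex, 41 residual degrees of freedom, two-sided tests, Benjamini-Hochberg adjustment over 19714 genes and a threshold of 0.05. CPM are TMM-scaled. The sex difference of the Q140 effect used a term per genotype and sex. The scripts were tested on simulated data. Alternatives were library totals, DESeq2 1.42.0, no filter, a replicate block, only libraries whose names start alike (4 dropped), a plate-column term and, added after seeing the data, leaving out each mouse and 4 libraries apart on the first residual component. No 2 libraries of a group agreed within sampling noise. Each library is read as 1 mouse from its sex, replicate number and well; the labels do not state this outright, so p-values measure the spread between libraries, which may be in part technical.

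The members and lists were chosen with earlier results of these data known. Named members are those called in a genotype contrast or interaction and, in each role, the one with the highest FPKM and the one with the smallest p in Q140 against WT; of each other pathway list, up to 4 called genes are named. The 4 members named by sex, H2-T23, Ifngr1 and Jak2 were singled out after their values were seen, and other genes appear only as examples or as members of a role or marker list. Some genes of the pathway lists are counted there but not reported here by name.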

Additional observations from a re-analysis of the deposited data

Results flagged for a closer look

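In 102 groups of 8 mice (17 named members in 6 genotypes), 16 had a mouse whose gap to its nearest neighbour exceeded Dixon's 95% limit as a share of the group's range. The limit is set so that about 5% of independent groups with a normal spread exceed it. These groups share mice, and their genes were named partly for calls against WT that include WT F2. The 5% is therefore not their chance rate. In 14 of the 16 it was the highest mouse, and in 7 it was WT F2: Ifit1 (gap 0.815 of the range), Ifitm3 (0.814), Oasl2 (0.616), Gbp2 (0.616), Tap2 (0.612), Ifi27 (0.592) and Ifih1 (0.548). Q140 F2 stood apart in Gbp3 (0.627), Gbp2 (0.614), Oasl2 (0.602) and Ifit1 (0.556). The second female labelled Msh3-/- stood apart in Oasl2 (0.712) and Ifit1 (0.551), and the second female labelled Q140 x Msh3+/- in Ifit1 (0.691), with 3.98 CPM against 2.12 CPM for the next mouse. The lowest mouse stood apart for Stat2 in Q140 x Msh3-/- F3 (0.678) and for Trim30a in Msh3+/- F1 (0.558), with 2.0 CPM against 2.84 CPM.

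For the pathway genes Ifngr2 and H2-T23 the Q140 difference on the background labelled Msh3-/- differed from that on WT by the interaction test, by -0.37 and 0.44.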

How the results depend on the processing

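In Q140 against WT the count of called members was 9 in the main analysis, 5 with library totals (Irf3 higher, 4 lower), 4 with only the libraries whose names start alike, and 1 to 10 with each mouse left out, the 1 being without WT F2. Library totals moved the median of all genes from -0.0041 to 0.065. With a replicate block the counts were 9 in Q140 against WT and 1 (Gbp2) against 0 for Q140 x Msh3-/- minus Q140. They were 2 (Irf1, Ifi27) against 1 on the background labelled Msh3+/-. Same-numbered mice showed low correlations of their deviations (from -0.146 to 0.359, at best 2 of 8 pairs over 0.1). In the members, however, the mice most often among the 5 highest were F2 of WT, Msh3-/-, Q140 x Msh3+/- and Q140 (39, 21, 20 and 12 of 43). The F2 mice labelled Msh3+/- and Q140 x Msh3-/- were so in 0 and 2 members. Whether the replicate numbers pair the mice is not settled. The block moved no other count past 1.5 times and was not fitted for sex, which lies within it. For Q140 x Msh3-/- minus Q140 the plate-column term gave 3, and leaving out mice 0 to 1. On the background labelled Msh3+/- library totals gave 0, and leaving out mice 0 to 2. On that labelled Msh3-/- library totals, no filter, the plate-column term and leaving out 4 libraries apart gave 0, and leaving out mice 0 to 1. Members called by sex were 7 with DESeq2, 2 without a filter and 3 to 7 with mice left out. Counts for Msh3 loss without Q140, for Q140 x Msh3+/- minus Q140 and for both interactions were 0 in every alternative run. A CPM limit of 0.1 or 0.5 kept 44 or 39 members. Of named genes, 542 alternative values kept direction and side of the threshold, 67 lost it, 8 gained it and 13 changed sign, all 13 uncalled in Q140 against WT: Ddx58 (main 0.016; -0.0174 with libraries whose names start alike, -0.0168 with plate column, -0.0243 to 0.0868 with mice left out), Stat2 (0.0508 with library totals, -0.0464 to 0.0199 with mice left out), Ifih1 (-0.127 to 0.0231 with mice left out) and Trim25 (-0.114 to 0.0108), the highest of each being without WT F2. Over all genes, calls for Q140 x Msh3+/- minus Q140 were 260 and became 444 with DESeq2, 422 with the plate-column term and 154 without the 4 libraries apart; those for the Msh3+/- interaction were 3 and became 51, 10 and, with library totals, 5. The cause was not tested. The standard error was 0.52 for Mx1 in Q140 against WT; the parts of depth and of spread between mice in it were not tested.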
